A study of Homo sapiens with 6 samples.

Results

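The 9 genes described here are neuronal genes whose transcripts are known to take up cryptic exons, or to be otherwise misspliced, when the RNA-binding protein TDP-43 is lost: STMN2, UNC13A, UNC13B, KALRN, ELAVL3, CELF5, SYT7, CAMK2B and RAP1GAP. They were taken by symbol from a table of 26372 genes, and all 9 were found. Of these, 8 had a mean of at least 1 FPKM (fragments scaled by transcript length and by mapped library size) over the 6 libraries and were tested among 13434 such genes, and CAMK2B was below that level. The libraries were poly(A)-selected RNA of SH-SY5Y, an established human neuroblastoma line. In 3 of them the cells carried a stable shRNA against TDP-43 (shT2) and in the other 3 a control shRNA (shNC3), both delivered by lentivirus in the vector pLVX-U6-shRNA1. The labels describe puromycin selection and upkeep for the knockdown cells and do not say whether the control cells received it. Each arm has 1 hairpin, and no treatment time or separate cultures are named, so the p-values reflect how far libraries of a group lie apart, a spread that may be technical.

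TDP-43, encoded by TARDBP, binds UG-rich RNA and keeps the splicing machinery away from cryptic exons, which are stretches of intron that are normally skipped. A cryptic exon can bring in an early polyadenylation site, as in STMN2, or a premature stop codon that exposes the transcript to nonsense-mediated decay, as in UNC13A, so that full-length mRNA is lost. The genes act in axon growth (STMN2, KALRN), in the release of synaptic vesicles (UNC13A, UNC13B, SYT7), in neuronal RNA processing (ELAVL3, CELF5) and in calcium and small GTPase signalling (CAMK2B, RAP1GAP). The deposited values are per gene, so they hold no measurement of any exon, and inclusion of cryptic exons was not tested.

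TARDBP itself measured 21.9, 20.7 and 21.0 FPKM with the TDP-43 hairpin, compared with 50.3, 50.3 and 47.7 FPKM with the control hairpin. The knockdown mean was 42.8% of the control mean, a log2 fold change of -1.19 (SE 0.045, limma adjusted p = 6.69e-08). Fold changes throughout are knockdown over control on the log2(FPKM + 1) scale, a scale that makes changes of low genes look smaller, and a gene was called at a Benjamini-Hochberg adjusted p under 0.05 over all genes tested.

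Changes between these libraries were widespread, and they set the scale for the 9 genes. Of all genes tested, 30.5% were called higher and 35.9% lower in the knockdown, 66.3% in all. Of the calls, 45.9% were higher, against 58.7% after quantile normalization. Rescaling every column to the same sum gave 4.27%, and there the median of all genes moved from -0.02 to -0.82. The column sums ran from 1183000 to 2449900 FPKM. Of each sum, 6 small RNAs held 79.7% to 82.0% in the knockdown and 63.8% to 64.9% in the control. They are SNORD3A, RN7SK, RN7SL1, RN7SL2, RMRP and RPPH1. Why they hold so much of libraries labelled poly(A)-selected was not tested. With those 6 left out of the sums, the same rescaling gave 42.3% of calls higher and a median of -0.05. Relative depth, read from the steps of low values, was 52.7% to 94.4% of the deepest library in the knockdown and 84.2% to 100% in the control. Markers of 2 neuroblastoma cell states moved with the groups. Like the members and the other lists below, the marker lists were chosen with earlier results of these data known. Noradrenergic markers (19 of 20 tested) were called higher for 14 genes and lower for 2, and their summed level was 1318 to 1459 FPKM in the knockdown against 685 to 700 FPKM in the control. CHGA, a granule protein, rose by 3.32 and ALK, a receptor kinase, by 2.61, while TH, the defining enzyme of catecholamine synthesis, was listed at 0 in every library. The 2 called lower were SLC18A1 (-0.95) and DBH (-0.28). Mesenchymal markers (28 tested) were called lower for 26 genes and higher for 1, with sums of 1150 to 1175 FPKM against 5829 to 5863 FPKM. PRRX1, a mesenchymal transcription factor, changed by -6.10, and ANXA1 and CAV1 were listed at 0 in the 3 knockdown libraries. TWIST1 was the 1 called higher, by 1.40. Of 10 Schwann and glial markers 3 could be tested, 2 called higher, S100B among them, and PMP22 lower, with sums of 36.9 to 37.7 FPKM against 39.8 to 42.7 FPKM, FOXD3 at 0 throughout and CDH19 at 0 in the knockdown. The part of these marker shifts in the values below was not tested. In bulk RNA, fewer cells of a type and less RNA per cell cannot be told apart.

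Of the 8 tested genes, UNC13A, ELAVL3 and CELF5 were called higher, STMN2, UNC13B and KALRN were called lower, and SYT7 and RAP1GAP did not pass. The 3 higher calls stand beside 30.5% of all genes and the 3 lower calls beside 35.9%. Their median log2 fold change was -0.04, against -0.02 over all genes tested. The libraries of the groups did not overlap for any of the 9, with 5 genes higher and 4 lower, and the same held for 70.8% of all genes tested. So the share called was near the background, and the genes did not move in 1 direction.

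**Figure D1:**
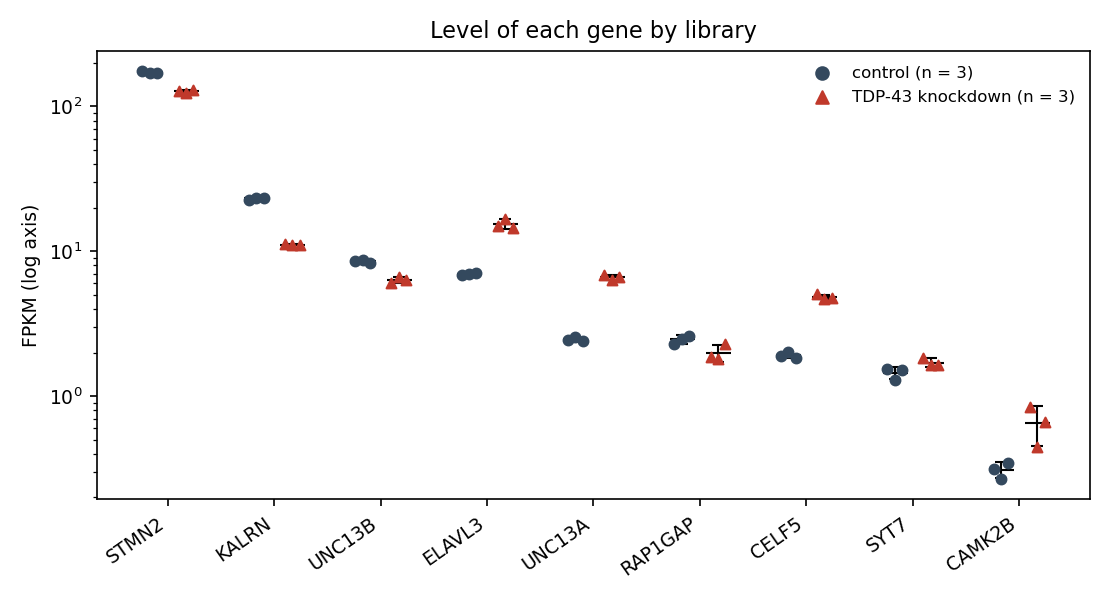
FPKM of each of the 9 genes in each of the 6 libraries, on a log axis; points are libraries, and the lines give the mean ± SD of the 3 libraries of a group. The knockdown points lie above the control points for UNC13A, ELAVL3, CELF5, SYT7 and CAMK2B and below them for STMN2, UNC13B, KALRN and RAP1GAP.

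FPKM is per length, so levels can be set in order. STMN2 stood far above the others in both groups. In the knockdown it was followed by ELAVL3, KALRN, UNC13A, UNC13B, CELF5, RAP1GAP, SYT7 and CAMK2B, where UNC13A and UNC13B overlapped, as did RAP1GAP and SYT7. In the control the order after STMN2 was KALRN, UNC13B, ELAVL3, UNC13A, RAP1GAP, CELF5, SYT7 and CAMK2B, and only UNC13A and RAP1GAP overlapped as neighbours.

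STMN2 encodes stathmin-2, a tubulin-binding protein of growing axons, and lies at chr8:79610814-79666175 on the plus strand (GENCODE release 29, GRCh38). Its level was 127, 125 and 131 FPKM in the knockdown and 175, 171 and 170 FPKM in the control. All knockdown libraries were lower, and the means of 127 ± 3.05 and 172 ± 2.81 FPKM (SD, n = 3) gave a log2 fold change of -0.43 (SE 0.036, limma adjusted p = 9.15e-06). The knockdown mean was 74.1% of the control mean, and 21.6% of all tested genes had a fold change as low or lower. Quantile normalization reduced the change to -0.14 (limma adjusted p = 0.00563). The other stathmins were called higher: STMN1, the widely expressed form, was at 344 FPKM against 313 FPKM, STMN3 at 25.2 against 19.3 FPKM and STMN4 at 4.46 against 3.14 FPKM. Within each library, the share of STMN2 in the summed FPKM of the 4 stathmins was 25.2%, 25.6% and 25.4% in the knockdown, below all control libraries with 34.1%, 34.0% and 33.8%. Such a share does not change when a whole library is rescaled. With 3 libraries against 3, the exact two-sided permutation test cannot give less than p = 0.1, and it gave 0.1 (adjusted over 9 shares, 0.1) for this share and for every other share below.

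KALRN encodes kalirin, an exchange factor for RAC1 and RHOA that shapes dendritic spines. It fell to 11.2, 11.1 and 11.0 FPKM from 22.7, 23.5 and 23.5 FPKM, the largest fall of the 9 genes, by 1.00 on the log2 scale (SE 0.046, limma adjusted p = 2.10e-07). The level was 47.7% of control, and the libraries of each group lay close together. KALRN spans 646 kb at chr3:124080023-124726325 on the plus strand, longer than 99.1% of tested genes with a position, and its longest intron is 146 kb. Its paralogue TRIO, the other member of this family, also fell, from 57.6 to 32.8 FPKM, by 0.79. The share of KALRN in the pair was 25.3% ± 0.421 in the knockdown and 28.8% ± 0.251 in the control. Of 23 axon and microtubule genes tested, 13 were called higher and 9 lower (30.5% and 35.9% of all genes), with a median of 0.14. GAP43, a growth cone protein, changed by -2.45, DPYSL3 by -1.67 and DCLK1 by -1.57, whereas DCX, a microtubule-binding protein of migrating neurons, rose by 1.99. With equal column sums, 2 of the 13 higher genes stayed above 0, and the list median was -0.74, against -0.82 over all genes. Under the other scalings tried, no called gene of this list changed direction.

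UNC13A and UNC13B encode Munc13 proteins, which prime synaptic vesicles for fusion, and they moved in opposite directions. Their promoters are shown because the paralogues moved apart. RefSeq (GRCh38.p14) gives 1 start for UNC13A and 3 for UNC13B, of which the most upstream is printed. Each run is the 250 bases before the start, at chr19:17688355-17688604 (minus strand) and chr9:35161759-35162008 (plus strand), with capitals marking the GC box GGGCGG or its reverse complement CCGCCC.
UNC13A: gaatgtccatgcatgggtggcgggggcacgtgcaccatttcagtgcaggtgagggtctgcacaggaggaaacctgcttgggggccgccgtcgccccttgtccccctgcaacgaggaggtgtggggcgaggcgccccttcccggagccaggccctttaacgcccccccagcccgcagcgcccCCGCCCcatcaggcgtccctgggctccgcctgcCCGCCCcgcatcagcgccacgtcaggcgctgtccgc
UNC13B: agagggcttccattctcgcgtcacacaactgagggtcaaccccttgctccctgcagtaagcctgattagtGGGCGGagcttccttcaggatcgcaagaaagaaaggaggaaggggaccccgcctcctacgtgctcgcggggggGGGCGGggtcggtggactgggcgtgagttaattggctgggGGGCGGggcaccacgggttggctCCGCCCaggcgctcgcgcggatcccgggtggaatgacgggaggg
The UNC13A window has a GC content of 72% and 2 GC boxes, and the printed UNC13B window 66% and 4. The windows of the other UNC13B starts have 37.6% and 57.6% and no GC box. Over all 35116 windows the median GC content was 58%, and 42.6% held a GC box on either strand. A match describes the letters only.

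The UNC13A gene spans chr19:17601328-17688365 (minus strand) and UNC13B chr9:35161992-35405338 (plus strand). UNC13A was at 6.81, 6.29 and 6.70 FPKM in the knockdown and at 2.45, 2.58 and 2.39 FPKM in the control. Every knockdown library was above every control library, and the mean was 2.67 times that of the control, a rise of 1.13 (SE 0.068, limma adjusted p = 1.14e-06). At the 97.5 percentile, this was among the upper fold changes of all genes tested. UNC13B was at 6.08, 6.65 and 6.39 FPKM against 8.61, 8.70 and 8.36 FPKM, and its fold change was -0.37 (SE 0.059, limma adjusted p = 5.46e-04). The ratio of UNC13A to UNC13B within a library was 1.12, 0.945 and 1.05 in the knockdown and 0.285, 0.296 and 0.286 in the control, so that the means differed 3.59-fold (exact permutation p = 0.1, two-sided). UNC13A thus made up 40.1% ± 1.89 of the 4 UNC13 genes in the knockdown against 19.9% ± 0.612 in the control, and UNC13B 38.8% ± 1.72 against 68.8% ± 0.631. UNC13D, which acts in granule release in immune cells, was at 3.44 against 1.39 FPKM and was called higher, and UNC13C was near 0.

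Around the UNC13A start, the 300-base window (250 before and 50 after) holds both 9-base parts of the motif of REST, TTCAGCACC and GGACAGCGC, searched on both strands. These parts were chosen after the sequence and the values had been seen. REST is a repressor of neuronal genes outside neurons. The site lies at chr19:17688340-17688365 and is printed on the strand of the gene. There the parts, in capitals, read as their reverse complements, with 8 bases between them.
UNC13A site: GCGCTGTCCgcgcccccGGTGCTGAA
Both parts occur in 7 of the 35116 windows, those of CELSR3, GRIA2, LHX3, PSD, SCG3, TPH2 and UNC13A. These are not all like sites: the parts lie 80 bases apart in CELSR3 and 2 bases apart in GRIA2, LHX3 and PSD. In PSD they do not share an orientation. The 8-base gap and shared orientation of the UNC13A site are also found in SCG3 and TPH2. TPH2 was at 0 in both groups. LHX3 was at 0 in the knockdown and 0.011 FPKM in the control, and neither gene could be tested. UNC13A had been seen before the parts were chosen, so its rise of 1.13 is no separate case. CELSR3 rose by 0.64, GRIA2 by 1.75, PSD by 1.11 and SCG3 by 1.54, each called higher, as were 30.5% of all genes. GRIA2 reached the 1 FPKM filter only through the knockdown, at 3.70 against 0.394 FPKM. With equal column sums, CELSR3 was below 0, at -0.18, where the median of all genes was -0.82. REST itself was at 17.4 ± 1.50 FPKM in the knockdown and 26.9 ± 0.337 FPKM in the control (SD, n = 3), a log2 fold change of -0.60 (limma adjusted p = 4.69e-05). Whether REST has a part in these levels was not tested.

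TDP-43 binds TG repeats in the gene, UG in RNA. In the spliced GENCODE transcripts, runs of at least 6 repeats were found in 2 of the 9 genes, UNC13A and RAP1GAP, against 7.56% of 12626 tested genes. At 4 or more repeats the count was 4 of 9 (30.3% of tested genes), and at 10 or more it was 0 of 9 (3.23%). Introns were not searched. The UNC13A run of 8 lies in the last exon, in the 3′ UTR, at chr19:17603221-17603236 (minus strand), and the RAP1GAP run of 6 in the first exon of a noncoding transcript at chr1:21651595-21651606 (minus strand). Capitals mark the repeat.
UNC13A repeat: ctccgTGTGTGTGTGTGTGTGtttag
RAP1GAP repeat: gcgccTGTGTGTGTGTGtttct

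SYT7, a calcium sensor of vesicle fusion at chr11:61515313-61581148 (minus strand), was at 1.84, 1.65 and 1.63 FPKM in the knockdown and 1.53, 1.30 and 1.52 FPKM in the control. The groups did not overlap, yet the log2 fold change of 0.14 did not pass (limma adjusted p = 0.182, 95% interval -0.06 to 0.34). Its share of 17 synaptotagmins was 1.14% ± 0.0753 against 0.652% ± 0.0638. SYT4 and SYT11 were called lower, at 37.5 against 116 FPKM and 40.1 against 50.1 FPKM, while SYT1, the fast calcium sensor, was called higher, at 33.8 against 21.2 FPKM. SYT13 had the largest rise of the family, 2.04, from 0.489 to 5.12 FPKM, and SYT17 rose by 1.03. SYT3, SYT5 and SYT16 were also called higher, by 0.56 to 0.68, SYT9 was called lower at -1.00, and SYT14 did not pass (-0.15). SYT2, SYT6, SYT8, SYT10, SYT12 and SYT15 were too low to be tested, SYT6 and SYT10 being listed at 0 throughout. Of 35 vesicle priming and release genes tested, 23 were called higher and 7 lower (30.5% and 35.9% of all genes), with a median of 0.61 against -0.02 over all genes. The list was chosen with earlier results of these data known, so its share is not an independent test. RAB3B, a vesicle GTPase, had the largest change of the list, -2.57, followed by DOC2B with 1.70, CPLX1, a SNARE regulator, with 1.68 and SYT4 with -1.61. With equal column sums, 14 of the 23 stayed above 0, and the list median was -0.23, against -0.82 over all genes. Summed levels of the list overlapped, at 425 to 451 FPKM in the knockdown and 434 to 438 FPKM in the control. SYT4 had the highest control level in the list. It held 33.2 to 40.5 FPKM of the sum in the knockdown and 113 to 119 FPKM in the control.

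ELAVL3, a neuronal Hu protein that binds AU-rich RNA, lies at chr19:11451326-11481046 (minus strand). It was at 15.1, 16.8 and 14.4 FPKM in the knockdown and at 6.87, 6.99 and 7.12 FPKM in the control. Its means were 15.4 ± 1.23 and 7.00 ± 0.127 FPKM (SD, n = 3), and it rose by 1.03 (SE 0.066, limma adjusted p = 1.71e-06). With equal column sums the change was 0.21 and did not pass (limma adjusted p = 0.0523), where the median of all genes was -0.82. ELAVL2 and ELAVL4 were also called higher, at 4.36 against 2.45 FPKM and 89.3 against 68.2 FPKM, and ELAVL1, the widely expressed form, did not pass (0.12). The share of ELAVL3 in the 4 genes was 11.6% ± 1.22 in the knockdown and 6.99% ± 0.196 in the control.

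CELF5, a brain splicing regulator of the CELF family, lies at chr19:3224703-3297076 (plus strand). It was at 5.05, 4.70 and 4.77 FPKM against 1.90, 2.01 and 1.84 FPKM. It rose by 1.00 (SE 0.072, limma adjusted p = 3.55e-06), to 2.53 times the control mean. Its promoter is shown for its base composition, the 250 bases before the start at chr19:3224411-3224660 (plus strand, GRCh38.p14), capitals again marking GC boxes.
CELF5: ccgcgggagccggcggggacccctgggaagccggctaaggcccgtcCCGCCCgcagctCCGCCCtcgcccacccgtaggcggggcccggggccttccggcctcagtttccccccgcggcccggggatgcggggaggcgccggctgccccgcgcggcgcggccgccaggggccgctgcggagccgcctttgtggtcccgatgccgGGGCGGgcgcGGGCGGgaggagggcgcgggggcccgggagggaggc
The GC content was 84%, above that of 99.3% of windows, with 4 GC boxes and 38 CpG, where the median window had 11. CELF3, CELF4 and CELF6 were called higher too, at 9.17 against 3.09 FPKM, 3.48 against 1.43 FPKM and 2.62 against 0.456 FPKM. CELF1, expressed in most tissues, was called higher by 0.24, and CELF2 was too low to be tested. The share of CELF5 in the 6 CELF genes was 7.26% ± 0.186 against 4.11% ± 0.191. Of 18 neuronal RNA-binding protein genes tested, 11 were called higher and 4 lower (30.5% and 35.9% of all genes), with a median of 0.33. This list includes the ELAVL and CELF relatives given above, so its calls are not separate from theirs. MBNL2, a splicing regulator, had the largest change, -1.73, and SRRM4, which promotes neuronal microexons, rose by 1.52. With equal column sums, 4 of the 11 stayed above 0, and the list median was -0.50, against -0.82 over all genes.

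**Figure D2:**
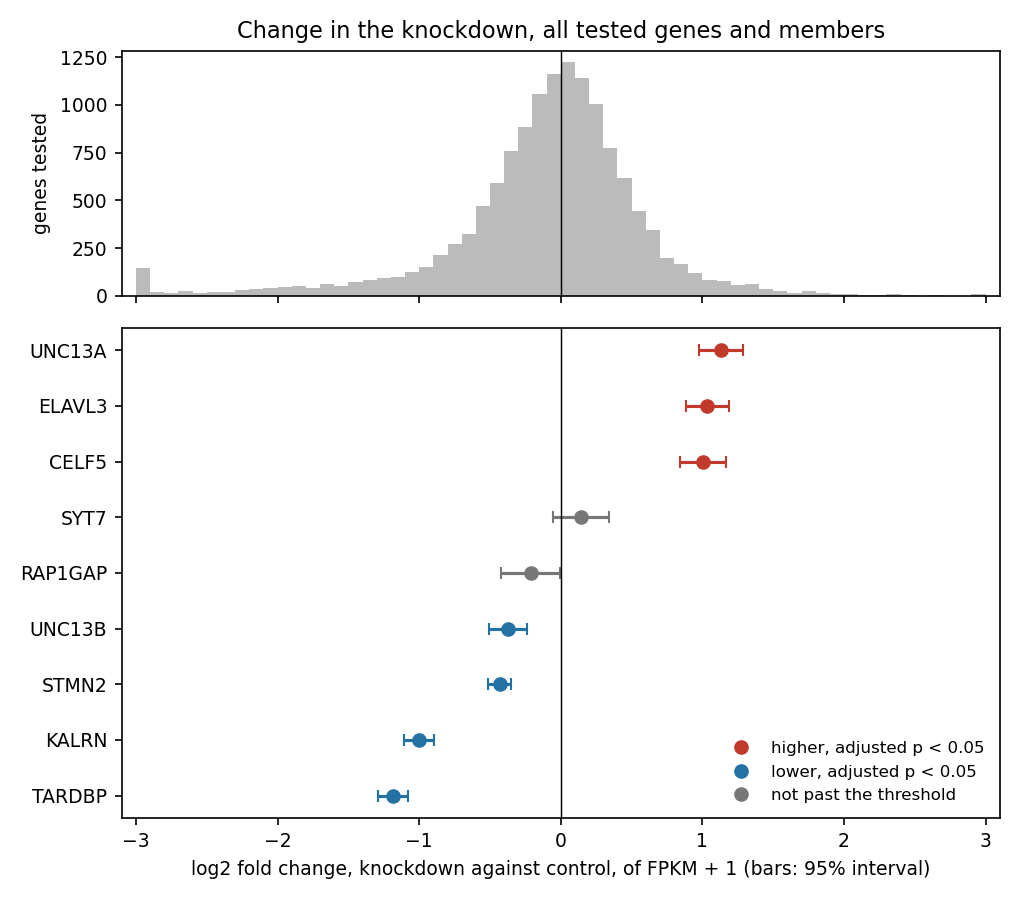
The upper panel is a histogram of the log2 fold changes, knockdown over control, of all 13434 genes tested, with values beyond the plotted range gathered in the outer bars. The lower panel gives the 8 tested genes and TARDBP with 95% intervals, coloured by call, from UNC13A at 1.13 to KALRN at -1.00 and TARDBP at -1.19.

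RAP1GAP, at chr1:21596215-21669363 (minus strand), turns off the small GTPase RAP1. It was at 1.87, 1.82 and 2.29 FPKM in the knockdown and at 2.29, 2.48 and 2.62 FPKM in the control. The highest knockdown library stood just below the lowest control library, and the log2 fold change of -0.21 did not pass (limma adjusted p = 0.0676, 95% interval -0.42 to -0.0040). It passed without knockdown replicate 3 (-0.28, limma adjusted p = 0.0289). RAP1GAP2, its paralogue, fell to 11.2 from 28.3 FPKM, by 1.27, and the share of RAP1GAP in the pair was 15.1% ± 1.95 against 8.01% ± 0.579. CAMK2B, a subunit of the kinase CaMKII at chr7:44217150-44334577 (minus strand), was at 0.842, 0.444 and 0.662 FPKM against 0.315, 0.268 and 0.346 FPKM. The knockdown libraries were the higher ones, but the mean was under 1 FPKM. At a minimum mean of 0.1 FPKM it passed, at 0.33 (limma adjusted p = 0.0241), and with no filter it did not (limma adjusted p = 0.0642). CAMK2D and CAMK2G, the forms found in most tissues, were at 29.2 against 33.0 FPKM and 10.8 against 9.33 FPKM, called lower and higher. CAMK2A was near 0, and the share of CAMK2B in the 4 genes was 1.58% ± 0.412 against 0.728% ± 0.111. Of 36 CaMKII, RAP1 and RAC1 genes tested, 12 were called higher and 21 lower (30.5% and 35.9% of all genes), with a median of -0.34. Equal column sums gave 2 higher and 31 lower calls, and 4 of the 12 stayed above 0. The list median was then -1.1, against -0.82 over all genes. RAP1GAP2 led, then RAPGEF4, a RAP1 activator, with 1.19, CAMK2N2, a CaMKII inhibitor, with 1.15, and RAP1B with -0.97.

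**Figure D3:**
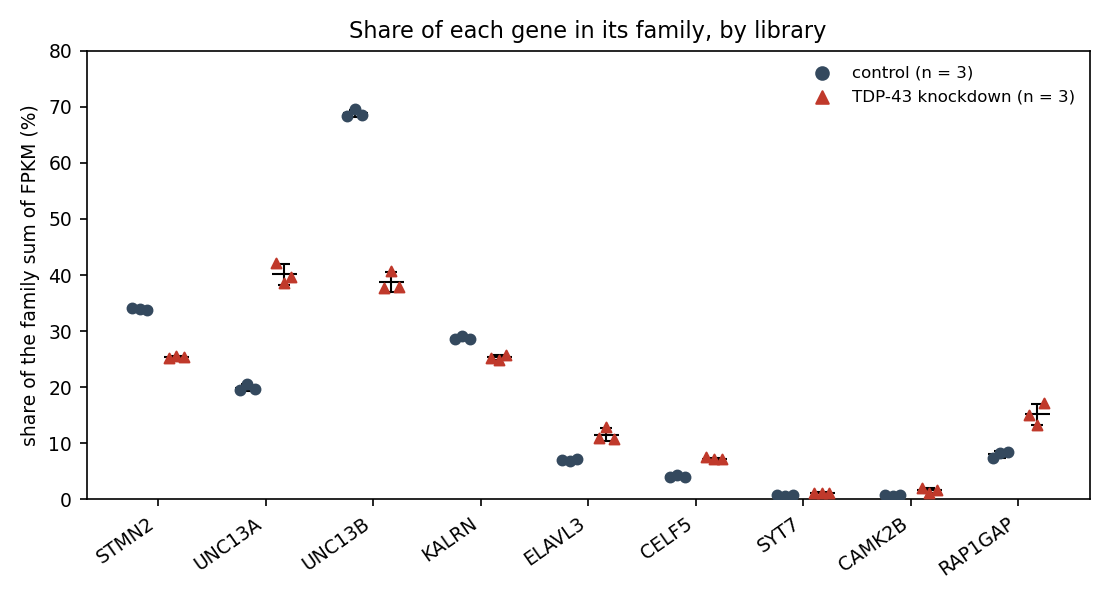
Share of each of the 9 genes in the summed FPKM of its family, in percent, one point per library, with the mean ± SD of each group. The knockdown points lie above the control points for UNC13A, ELAVL3, CELF5, SYT7, CAMK2B and RAP1GAP and below them for STMN2, UNC13B and KALRN.

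Of the 34 family genes beside the 9, 25 were tested, 17 of them called higher and 6 lower (30.5% and 35.9% of all genes), with a median of 0.38. With equal column sums, 9 of the 17 stayed above 0 and 15 of the 25 were called lower. The median of the 25 was then -0.50, against -0.82 over all genes. CAMK2D turned above 0 under quantile normalization. Many of these family genes, such as STMN1, UNC13D, SYT1, CELF3 and TRIO, are also in the lists above. The counts of the family genes and of those lists are therefore not separate.

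**Figure D4:**
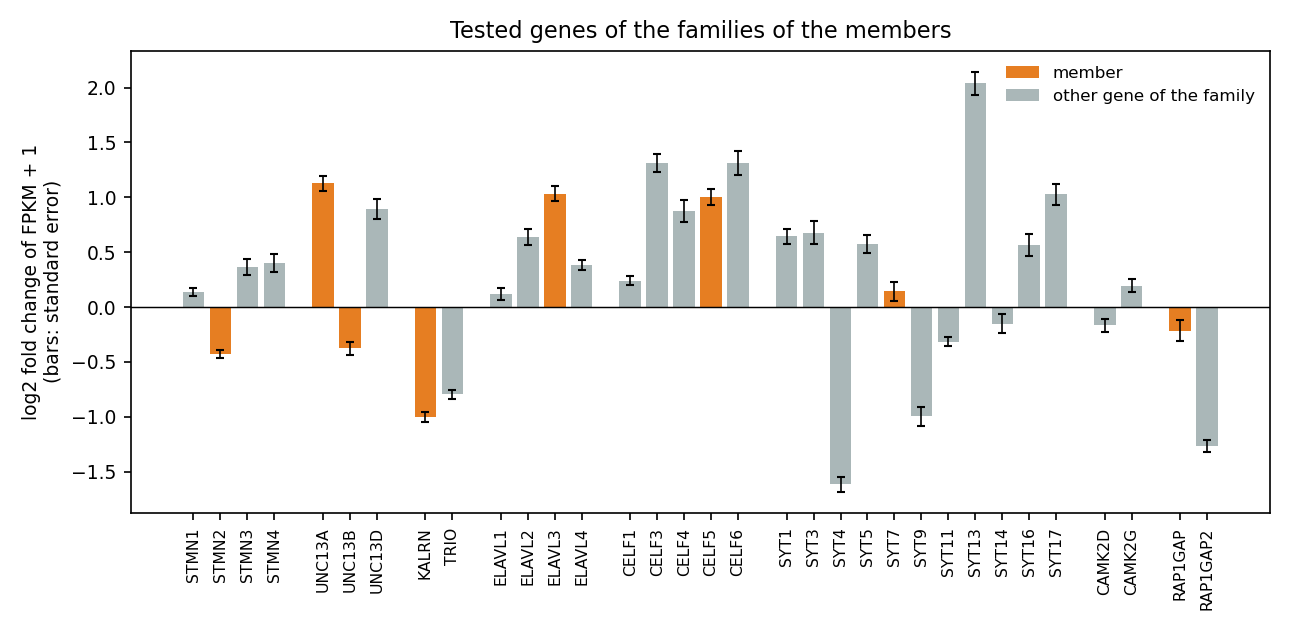
Log2 fold changes of the tested genes of each family, grouped by family, with standard errors; orange bars are the genes described here and grey bars their relatives. UNC13A and UNC13B point in opposite directions, as do STMN2 and the other stathmins.

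Of 20 tested other TDP-43 splicing targets, 5 were called higher and 9 lower, beside 30.5% and 35.9% of all genes, with a median of -0.12. PFKP, a glycolytic enzyme, changed by -2.15, whereas ACTL6B, a neuronal chromatin remodelling subunit, rose by 1.38 and EPB41L4A by 1.29.

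The 2 genes nearest to each member in pattern were found by the root mean square difference of mean-centred log2(FPKM + 1) over the 6 libraries. Those given here were CCDC14 and ARCN1 for STMN2, EHBP1L1 and NID1 for KALRN, MTURN and NKD1 for UNC13A, and LRP4 and TRIM25 for UNC13B. For ELAVL3 they were CCDC136 and RGAG4, for CELF5 SLCO1A2, for SYT7 CTDSP1 and ARV1, and for RAP1GAP ALG14 and PSMB7. The differences ran from 0.0127 for CCDC14 to 0.0280 for SLCO1A2. Of the 13434 genes tested, 1454 lay within 0.1 of STMN2 and 125 within 0.1 of UNC13A. NKD1 and SLCO1A2 reached the 1 FPKM filter only through the knockdown, at 2.36 against 0.552 FPKM and 1.75 against 0.366 FPKM.

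**Figure D5:**
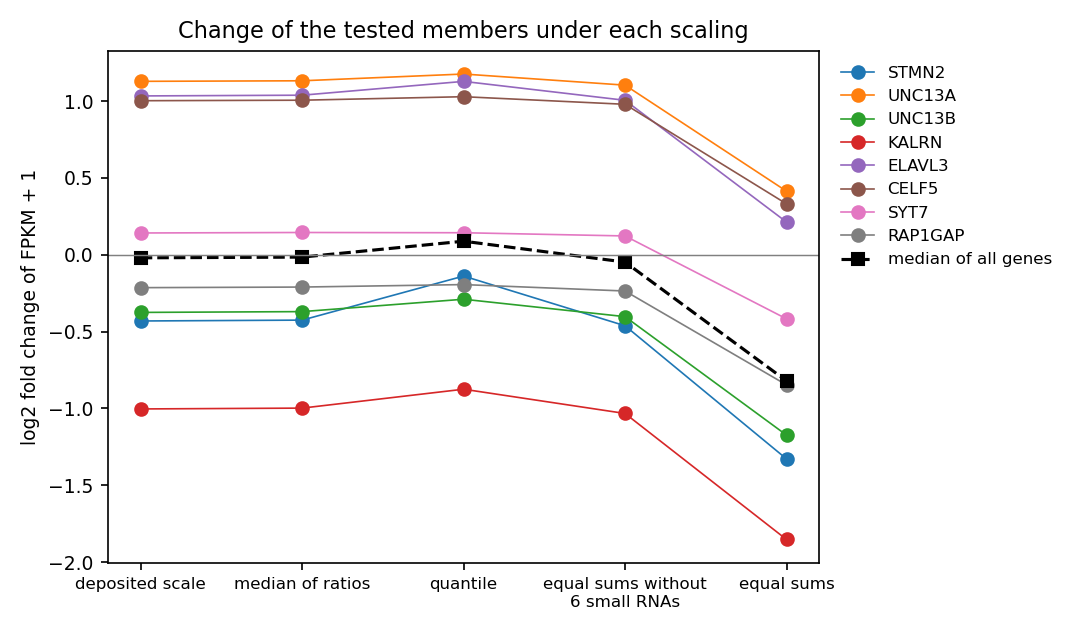
Log2 fold changes (y axis) of the 8 tested genes under 5 ways of scaling the libraries (x axis), with the median of all genes as a dashed line. UNC13A, CELF5 and ELAVL3 stay above 0 and STMN2, UNC13B, KALRN and RAP1GAP below 0 under every scaling shown, and SYT7 is at -0.42 with columns rescaled to equal sums.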

How the data were processed

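Poly(A) RNA of 6 SH-SY5Y libraries, 3 per group, was sequenced after strand-marking library preparation (per the labels' protocols). The authors deposited FPKM per gene and library. The submitters' processing notes name TopHat2 2.1.0, SAMtools, Cuffdiff 2.2.1 and hg38. Not given in the sources used here: the annotation, and the use of strand. GENCODE lists 12 genes overlapping 6 of the members, whose reads could therefore be mixed; 2 of them, MIR5002 and MIR6083 in KALRN, are in the table, at 0. The number of reads is unknown, an exact 0 can be a failed estimate, and relative depth came from values under 0.3 FPKM.

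Values were taken as log2(FPKM + 1), genes averaging at least 1 FPKM were tested with limma 3.58.1 (R 4.3.3) with an intensity trend, two-sided, and p-values were adjusted over 13434 genes. The fit was tested on simulated data. Family shares and the UNC13A ratio were compared by exact permutation. Genes named were the members, their families, up to 4 called genes of each pathway list and 3 of each marker list by size of change, and 2 nearest patterns per member; some genes that this rule names are not reported here. The REST motif parts and the genes holding them were chosen after values were seen. The members and the 8 lists were chosen with earlier results of these data known. Positions came from GENCODE release 29, matched by symbol for 94.0% of tested genes, and promoters from RefSeq, with an entry for 5 of the 8 members looked up. Other pseudocounts, filters, scalings and fits, and leaving out each library, were tried.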

Additional observations from a re-analysis of the deposited data

How the results depend on the processing

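The direction of the 6 called members held under every scaling, pseudocount, filter and left-out library that tested them. At a minimum mean of 5 FPKM, 1 member was called higher, because fewer were tested, and with columns rescaled to equal sums 5 members were called lower. That rescaling called 522 genes higher and 11689 lower, turned SYT7 to -0.42, took ELAVL3 to 0.21 (limma adjusted p = 0.0523) and called RAP1GAP at -0.85. Under quantile normalization the difference in family share was -6.62 points for STMN2, -5.16 for KALRN, 3.59 for ELAVL3, 2.45 for CELF5 and 0.350 for SYT7. Without a pseudocount the log2 ratio of UNC13A to UNC13B differed by 1.84, against 1.50 with it. RAP1GAP also passed without an intensity trend (limma adjusted p = 0.0385) and with equal sums without 6 small RNAs, an alternative chosen after seeing the data (limma adjusted p = 0.0454). The other splicing targets called higher numbered 3 without a filter, with equal sums, or without control replicate 2; 17 were called lower with equal sums, and quantile normalization called 6 higher and 6 lower. At a minimum mean of 5 FPKM, 15 vesicle genes and 7 RNA-binding protein genes were called higher. With equal sums the numbers called higher and lower were 1 and 19 axon genes, 10 and 18 vesicle genes, 4 and 11 RNA-binding protein genes and 7 and 10 noradrenergic markers. Under the other scalings tried, no called axon gene, vesicle gene or noradrenergic marker changed direction. Among the called RNA-binding protein genes 1 did, as did 1 among the CaMKII, RAP1 and RAC1 genes. With the 6 small RNAs left out of the sums, the median of all genes was -0.05, against -0.82 with them kept. Beyond fewer genes tested at the stricter filter, the cause of these changes in number was not tested. Same-numbered libraries did not deviate together (correlations -0.02, -0.18 and -0.09). A fit with the replicate number as a block called 3 members higher and 3 lower, and 3894 and 4667 of all genes. The search for TG repeats in gene bodies, planned for a genome sequence, was not run.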
